A study of Mus musculus with 24 samples.

Results

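The 10 genes described here belong to the growth hormone and IGF1 axis: Ghr, Igf1, Igfals, Socs2, Cish, Stat5a, Stat5b, Igfbp1, Igfbp2 and Igfbp3. They were chosen by gene name, and every array probe carrying one of these names was used, 21 of 56605 gene probes. Of these, 19 passed the filter on dim probes, and all 10 genes were among the 21331 genes tested. The study measured liver RNA of 24 male C57Bl/6J mice on single-colour oligonucleotide arrays, with 6 mice in each of 4 groups. LWT and LKO are the genotype labels, and by the series title they stand for mice whose hepatocytes express the nuclear receptor PPARα or lack it. The promoter that drives the deletion, the ages and the litters are not given in the sources used here. CL316243 is an agonist of the beta3 adrenergic receptor and was given once by gavage at 3 mg/kg, 10 h after lights on, in 0.5% carboxymethyl cellulose. Vehicle mice of both genotypes received the carboxymethyl cellulose alone, and all 24 livers were taken 16 h after lights on. All groups ate a standard diet freely.

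Growth hormone from the pituitary binds its receptor on hepatocytes and activates the kinase JAK2, which phosphorylates STAT5A and STAT5B. These factors switch on Igf1, Igfals and the feedback inhibitors Cish and Socs2, and in the male rodent liver their pulsatile activation maintains a set of sex-biased genes. IGF1 circulates bound to IGFBP3 and the acid labile subunit, the product of Igfals, while IGFBP1 and IGFBP2 form smaller complexes and IGFBP1 is known to fall with insulin and rise in fasting.

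The promoter windows below held matches to a motif of STAT5 or of FoxO factors. Any link between these matches and the changes described later was not tested. Each window runs from 250 bases before to 50 bases after an annotated start, in the RefSeq annotation of build GRCm38.p6. Of the 10 members, 9 had a window there, and Socs2 had none. Capitals mark matches, on either strand, to the STAT5 motif TTCNNNGAA or to the insulin response motifs TATTTTG and TGTTTTG, which FoxO factors bind. The windows of Cish (chr9:107296409-107296708, plus strand), of 2 annotated Igfals starts (chr17:24877594-24877893 and chr17:24877981-24878280, plus strand) and of Igfbp1 (chr11:7197537-7197836, plus strand) read as follows.
Cish: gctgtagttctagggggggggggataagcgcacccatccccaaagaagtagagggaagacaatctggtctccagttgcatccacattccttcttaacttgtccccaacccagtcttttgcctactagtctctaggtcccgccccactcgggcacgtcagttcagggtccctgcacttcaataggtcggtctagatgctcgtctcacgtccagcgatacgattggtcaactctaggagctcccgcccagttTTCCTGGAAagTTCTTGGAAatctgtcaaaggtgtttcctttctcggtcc
Igfals, the first of these starts: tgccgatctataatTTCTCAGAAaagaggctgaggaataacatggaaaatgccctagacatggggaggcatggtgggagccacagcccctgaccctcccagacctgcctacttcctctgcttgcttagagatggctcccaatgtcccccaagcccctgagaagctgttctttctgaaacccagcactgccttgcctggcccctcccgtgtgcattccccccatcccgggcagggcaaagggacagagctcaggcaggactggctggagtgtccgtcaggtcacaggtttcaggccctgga
Igfals, the second of these starts: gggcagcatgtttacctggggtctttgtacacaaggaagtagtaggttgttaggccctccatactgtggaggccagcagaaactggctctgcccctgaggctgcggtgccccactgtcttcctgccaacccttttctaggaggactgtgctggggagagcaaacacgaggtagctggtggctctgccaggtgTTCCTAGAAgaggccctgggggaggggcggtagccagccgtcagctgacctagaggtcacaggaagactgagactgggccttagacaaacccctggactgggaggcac
Igfbp1: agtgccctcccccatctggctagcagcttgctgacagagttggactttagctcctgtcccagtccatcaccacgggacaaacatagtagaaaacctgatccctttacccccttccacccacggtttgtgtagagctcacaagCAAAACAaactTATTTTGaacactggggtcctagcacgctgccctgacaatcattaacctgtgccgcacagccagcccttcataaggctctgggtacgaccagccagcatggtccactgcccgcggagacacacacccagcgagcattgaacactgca
The STAT5 motif occurred in 8.30% of 32851 windows of this length and at least 2 times in 0.457%. Cish held it at positions 1 and 12 from the start, and the Igfals windows shown held it at -236 and -58. The remaining annotated Igfals window (chr17:24878497-24878796, plus strand) held no match. The insulin response letters occurred in 10.2% of windows, and 2 or more times in 1.1%. Igfbp1 held them at -108 and -97. No window of the other members searched held either motif, and Socs2 could not be searched. A match is a run of letters and was not tested as a binding site.

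The probes below are the Ghr probes with the largest and the smallest change in LWT mice and the Igf1 probe with the largest change. The pair for Ghr, on the minus strand, is A_52_P633550 (chr15:3295320-3295379) and A_52_P680941, whose 60 bases are annotated across chr15:3283509-3290961 and so join separate stretches of the genome. The last, A_52_P306327 (chr10:87325382-87325441, plus strand), was named for Igf1 and lies 68134 bases before the Igf1 probe with the highest signal. It is annotated to a liver tumor cDNA clone whose product is given as unclassifiable, and whether it reads Igf1 RNA was not tested. Positions of probes are those of the array annotation, build mm9, and whether they are exonic or intronic was not determined here.
Ghr A_52_P633550: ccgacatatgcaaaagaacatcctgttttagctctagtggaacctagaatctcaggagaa
Ghr A_52_P680941: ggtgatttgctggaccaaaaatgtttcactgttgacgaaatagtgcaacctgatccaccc
Igf1 A_52_P306327: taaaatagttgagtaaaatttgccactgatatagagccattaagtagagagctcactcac

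All levels below are log2 of the background-subtracted signal relative to the 75th percentile of the gene spots of the same array. A gene is represented by its kept probe with the highest mean signal. Differences were tested with limma across all genes, with Benjamini-Hochberg adjustment, and a gene was called at an adjusted p under 0.05. The labels do not say whether mice were littermates, so the p-values measure the spread between these 24 mice. In bulk liver, fewer cells of a type and less RNA per cell cannot be told apart. Between 26985 and 34202 probes were well above background on an array, and no spot was saturated. Ppara, the gene the genotype refers to, read 5.68 ± 0.16 (SD, n = 6) with vehicle and 6.23 ± 0.27 with the agonist in LWT mice. In LKO mice the values were 5.01 ± 0.15 and 4.32 ± 0.64. Its probe may lie outside the deleted part, so this does not check the labels on its own. The level of a cell type is the mean log2 level of its tested markers in each mouse, given as the group median. For 8 hepatocyte markers it was 8.07 to 8.15 across the groups, and for 6 Kupffer cell markers 1.71 to 2.02. The 6 endothelial markers had a median of 1.17 and 1.15 under vehicle and 1.51 and 1.48 under CL316243 (LWT, then LKO). The ranges of this level overlapped in LWT. In LKO they did not, from 0.84 to 1.29 under vehicle and from 1.31 to 1.53 with CL316243. Singly the endothelial markers did not move together: 2 were called higher and 1 lower in LWT, and 1 higher and 1 lower in LKO. Their median change was 0.16 and 0.01. The 6 neutrophil markers had medians of -2.49 and -2.78 under vehicle and -1.02 and -1.15 under CL316243. Among them 3 were called higher and 1 lower in LWT, and 5 higher and 0 lower in LKO. Over all genes, 18.9% were called higher in LWT and 20.9% in LKO, and 19.4% lower in each. Ranges of the neutrophil level overlapped in LWT, from -2.72 to -1.80 under vehicle and from -2.76 to -0.27 with CL316243. In LKO they did not, from -3.25 to -2.44 and from -2.11 to 1.25. The 6 stellate cell markers had medians of 0.85 to 0.97 in the 4 groups. The 6 cholangiocyte markers read -1.95 and -1.79 in LWT (vehicle, then CL316243) and -2.22 and -1.34 in LKO, with overlap in both. The 4 tested adipocyte markers read -1.92 and -2.34 in LWT, with overlap, and -1.74 and -2.17 in LKO, without overlap. The 1 of them called was Adrb3, the receptor of CL316243, which fell by 2.10 in LWT and by 1.92 in LKO. Of 5 pancreatic acinar markers 2 were tested. The medians of their mean level were -0.85 and -2.04 in LWT, without overlap, and -0.89 and -0.60 in LKO, with overlap. The part of any of these cells in the results below was not tested.

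**Figure D1:**
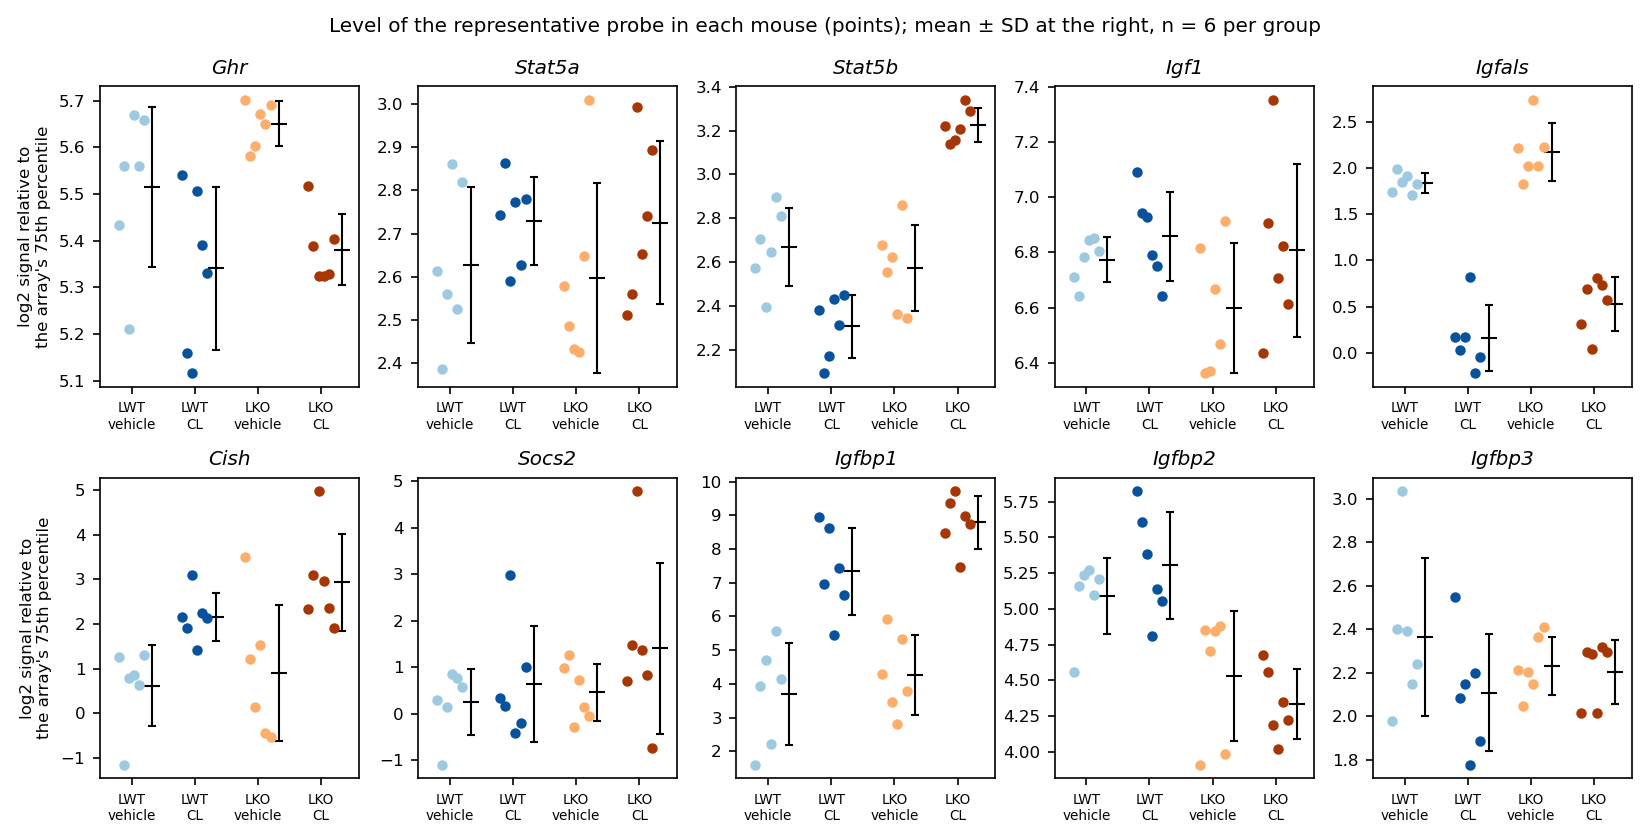
Level of the representative probe of each of the 10 genes in every mouse (points), on a log2 scale relative to the array's 75th percentile, with the mean ± SD of 6 mice beside each group. Igfals lies lower and Igfbp1 higher with CL316243 in both genotypes, and Stat5b is lower with CL316243 in LWT and higher in LKO.

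With CL316243 in LWT mice, 4 of the 10 members were called, against 38.3% of all genes tested. Igfbp1 and Cish were higher, and Igfals and Stat5b were lower. In LKO mice 5 were called, against 40.3% of all genes: Igfbp1, Cish and Stat5b were higher, and Igfals and Ghr were lower. With the representative probes, the members' shares were therefore near those of the whole array. Their median log2 change was 0.09 in LWT and 0.17 in LKO, beside medians of 0.01 and 0.03 for all genes. The groups did not overlap for 2 members in LWT, against 20.4% of all genes, and for 4 in LKO, against 20.8%. Of 3 slides, each holding 2 mice of every group, all 3 gave the sign of the pooled value for Igfbp1, Igfals and Stat5b in both genotypes. Cish had that sign on 3 slides in LWT and on 2 in LKO.

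**Figure D2:**
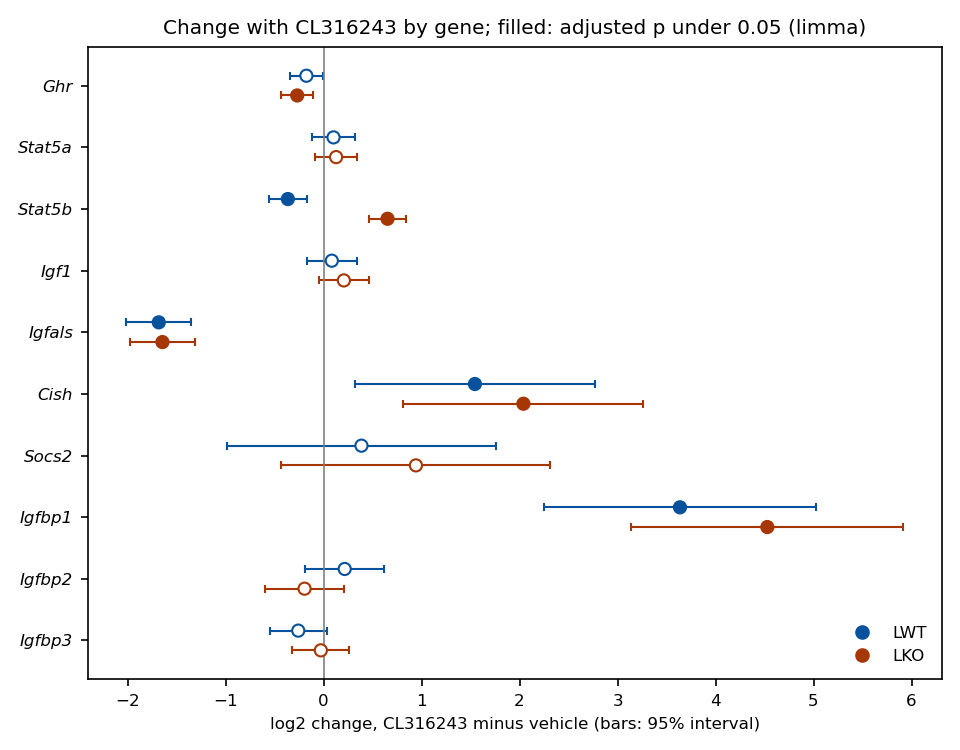
Log2 change of each gene with CL316243, in LWT (blue) and LKO (red), with 95% intervals from limma on 6 mice per group; filled points have an adjusted p under 0.05. Igfbp1 changed by 3.64 and 4.53, Igfals by -1.68 and -1.64, and the intervals of Stat5b lie on opposite sides of 0.

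Ghr encodes the growth hormone receptor, and its probes did not change by equal amounts. The representative probe A_55_P2500473 (chr15:3277543-3277602, minus strand) is annotated to transcript variant 2, which in the mouse encodes the short soluble growth hormone binding protein. It ran from 5.21 to 5.67 in LWT vehicle mice (median 5.56) and from 5.12 to 5.54 with CL316243 (median 5.36), so that the groups overlapped. The change was -0.17 (SE 0.08, 95% interval -0.34 to -0.01, adjusted p = 0.0878), with 5 of 6 mice below the vehicle mean. It passed the threshold in 4 of 13 processing alternatives. These were the authors' values (-0.25, adjusted p = 0.00741), quantile normalization here (-0.24, adjusted p = 0.0124), normexp background correction (-0.19, adjusted p = 0.0439) and the mean of the Ghr probes (-0.67, adjusted p = 4.76e-05). It also passed when LWT vehicle mouse 3 or CL316243 mouse 1 or 4 was left out (-0.24 to -0.21). In LKO the range was 5.58 to 5.70 under vehicle and 5.32 to 5.52 with CL316243, without overlap. Ghr fell there by 0.27 on the log2 scale (SE 0.08, adjusted p = 0.00948).

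Probe A_51_P499854 (chr15:3268107-3268166) reads transcript variant 1, which encodes the full-length receptor. When every kept probe was fitted, 37.6% of probes were called in LWT and 41.0% in LKO, and this probe was among them in both. In LWT mice it lay at 4.99 to 5.37 under vehicle (median 5.35) and at 4.32 to 5.06 with CL316243 (median 4.63). It fell by 0.60 (SE 0.11, adjusted p = 0.000124), with 6 of 6 mice below the vehicle mean. In LKO it ran from 5.22 to 5.47 and from 4.77 to 5.01, and it fell by 0.46 (adjusted p = 0.00144) without overlap.

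The widest Ghr change came from A_52_P633550, annotated to a separate Ensembl transcript. Its level was 1.56 to 3.18 in LWT vehicle mice (median 2.37) and 0.14 to 1.68 with CL316243 (median 0.21), with 5 of 6 treated mice below the whole vehicle group. It fell by 1.84 (SE 0.26, adjusted p = 8.5e-06), which is 3.58-fold. LKO mice read 1.74 to 2.56 under vehicle and 0.57 to 1.45 with CL316243, a fall of 1.24 (adjusted p = 0.000556) in 6 of 6 mice. The junction probe A_52_P680941 changed by -0.07 in LWT (adjusted p = 0.558) and fell by 0.39 in LKO (adjusted p = 0.00127), where 6 of 6 treated mice lay below all vehicle mice.

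Whether probes of one gene changed unequally was tested on their difference within each mouse, by two-sided exact permutation over 924 splits of the mice, adjusted over 18 comparisons. The variant 1 probe of Ghr fell further than the variant 2 probe by 0.42 in LWT (exact p = 0.00216, adjusted p = 0.0130) and by 0.19 in LKO (exact p = 0.00649, adjusted p = 0.0234). A_52_P633550 fell further than the variant 2 probe by 1.66 and by 0.97 (exact p = 0.00216 and adjusted p = 0.0130 in each genotype). The p of 0.00216 is the smallest that 6 against 6 allows in a two-sided test. For the junction probe the difference was 0.10 in LWT (adjusted p = 0.0740) and -0.12 in LKO (adjusted p = 0.221).

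**Figure D3:**
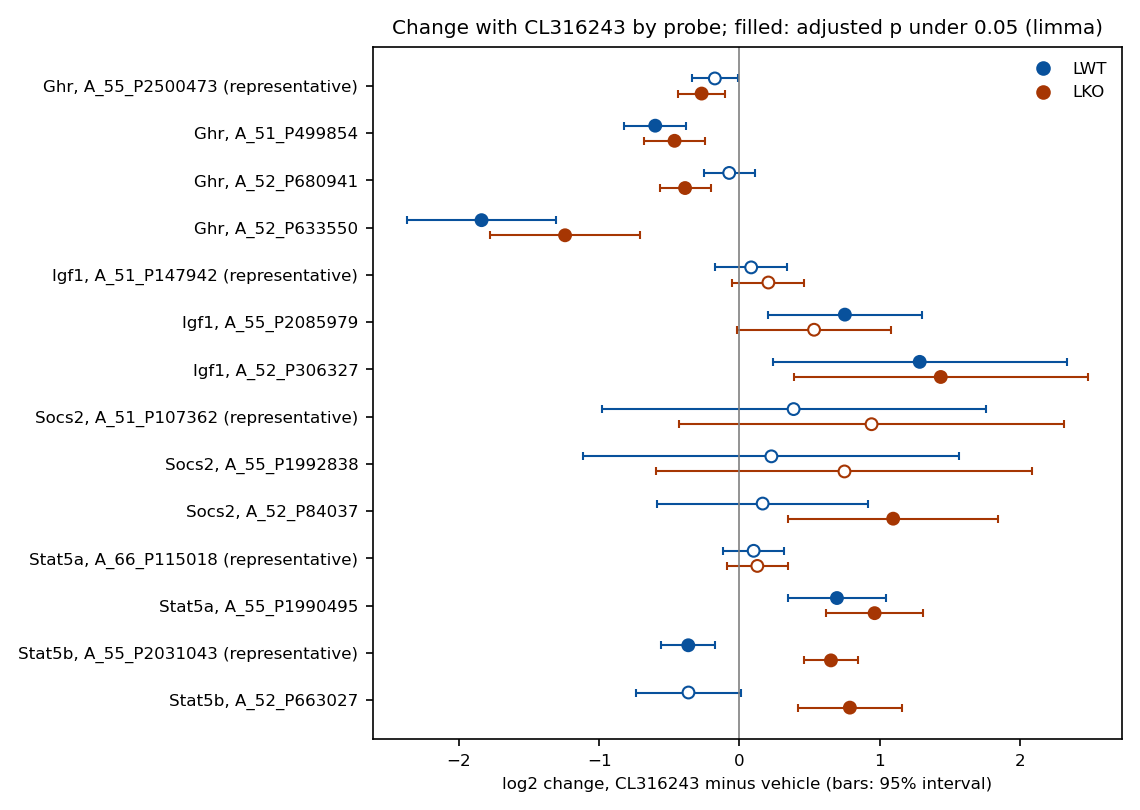
Log2 change with CL316243 for every kept probe of the 5 genes with more than 1 kept probe, in LWT (blue) and LKO (red), with 95% intervals from limma on 6 mice per group; filled points have an adjusted p under 0.05. Within Ghr the values run from -0.07 to -1.84 in LWT, and the second Stat5a probe lies at 0.70 and 0.96 beside 0.10 and 0.13 for the representative one.

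Stat5b, the main STAT5 form in hepatocytes, was the 1 member whose response differed between the genotypes. Its representative probe A_55_P2031043 (chr11:100642045-100642104, minus strand) ran from 2.40 to 2.90 in LWT vehicle mice (median 2.68) and from 2.10 to 2.45 with CL316243 (median 2.35). Stat5b fell there by 0.36 (SE 0.09, adjusted p = 0.00322), with 6 of 6 mice below the vehicle mean and 4 below the whole group. In LKO it ran from 2.35 to 2.86 under vehicle (median 2.59) and from 3.14 to 3.34 with CL316243 (median 3.21). It rose by 0.65 (SE 0.09, adjusted p = 1.11e-05), and the groups did not overlap.

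The difference between these effects was 1.02 (SE 0.13, adjusted p = 2.25e-05), while 5.41% of all genes were called for this interaction. It was 0.82, 1.14 and 1.08 on the 3 slides. The second probe named for Stat5b, A_52_P663027, lies 40675 bases away and is dim, at -4.40 to -2.28 over all mice. It is annotated to a thymus cDNA clone whose product is given as unclassifiable, and whether it reads Stat5b RNA was not tested. It changed by -0.36 in LWT (adjusted p = 0.121) and rose by 0.79 in LKO (adjusted p = 0.00137). Its interaction was 1.15 (SE 0.25, adjusted p = 0.00743), beside 5.96% of kept probes called. Under CL316243 the LKO livers held more Stat5b RNA than the LWT livers by 0.92 (SE 0.09, adjusted p = 1.27e-07), a 1.89-fold difference, and under vehicle the difference was -0.10 (adjusted p = 0.929). The pancreatic acinar marker Cela2a also moved in opposite directions, by -1.92 in LWT (adjusted p = 0.000157) and 0.79 in LKO (adjusted p = 0.0776), with an interaction of 2.71 (adjusted p = 0.0014), and the part of such cells in the Stat5b values was not tested. The other tested acinar marker, Ctrb1, fell by 0.33 and 0.30, with an interaction of 0.03 (adjusted p = 0.939).

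Stat5a, the paralog of Stat5b, has 2 probes on the same transcript, 1133 bases apart on chromosome 11. The representative A_66_P115018 changed by 0.10 in LWT (95% interval -0.11 to 0.32, adjusted p = 0.475) and by 0.13 in LKO (95% interval -0.09 to 0.34, adjusted p = 0.343). The dimmer A_55_P1990495 ran from -0.21 to 0.55 in LWT vehicle mice and from 0.86 to 1.19 with CL316243, without overlap. It rose by 0.70 (SE 0.17, adjusted p = 0.0023). In LKO it ran from -0.18 to 0.73 under vehicle and from 0.70 to 1.68 with CL316243, and rose by 0.96 (adjusted p = 0.000104). The second probe rose by 0.59 more than the first in LWT (exact permutation, adjusted p = 0.0195) and by 0.84 more in LKO (exact permutation, adjusted p = 0.0260).

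Igf1 encodes the hormone that carries much of the growth effect. Its representative probe A_51_P147942 (chr10:87393516-87393575, plus strand) lay at 6.64 to 6.85 in LWT vehicle mice and at 6.64 to 7.09 with CL316243. The change was 0.08 (95% interval -0.17 to 0.34, adjusted p = 0.630). In LKO it lay at 6.36 to 6.91 and at 6.44 to 7.35, a change of 0.21 (95% interval -0.05 to 0.46, adjusted p = 0.188). The groups overlapped in both genotypes.

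The dimmer Igf1 probes gave larger values. A_55_P2085979 (chr10:87378456-87378515), annotated to transcript variant 2, ran from 0.90 to 1.72 in LWT vehicle mice and from 1.37 to 2.53 with CL316243. It rose by 0.75 in LWT (SE 0.27, adjusted p = 0.0293), and the LKO change was 0.53 (adjusted p = 0.114). A_52_P306327 ran from -1.19 to 1.18 and from 0.21 to 2.21 in LWT. It rose by 1.29 there (SE 0.51, adjusted p = 0.0494) and by 1.44 in LKO (SE 0.51, adjusted p = 0.0268), with 6 of 6 mice above the vehicle mean in each. Against the representative probe, these rises were larger by 0.67 and by 1.2 in LWT (exact permutation, adjusted p = 0.0334 and 0.0341). In LKO the excess was 0.33 and 1.23 (exact permutation, adjusted p = 0.228 and 0.0779).

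Igfals encodes the acid labile subunit, the liver protein that holds IGF1 and IGFBP3 in the long-lived ternary complex. Its only probe, A_51_P277088 (chr17:25018251-25018310, plus strand), read 1.71 to 1.99 in LWT vehicle mice (median 1.84) and -0.22 to 0.82 with CL316243 (median 0.10). In LKO it read 1.83 to 2.74 (median 2.12) and 0.05 to 0.81 (median 0.64). All 12 treated mice lay below all 12 vehicle mice. Igfals fell by 1.68 in LWT (SE 0.16, adjusted p = 4.32e-08), which is 3.21-fold, and by 1.64 in LKO (SE 0.16, adjusted p = 1.66e-07), which is 3.13-fold. The interaction was 0.04 (95% interval -0.43 to 0.51, adjusted p = 0.956). The slides gave -1.45, -1.76 and -1.84 in LWT and -1.75, -1.58 and -1.60 in LKO.

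Cish and Socs2 encode SOCS family proteins that act as feedback brakes on the receptor and STAT5. Cish (A_51_P470715, chr9:107204196-107204255, plus strand) varied widely within groups. It ran from -1.15 to 1.29 in LWT vehicle mice (median 0.82) and from 1.42 to 3.09 with CL316243 (median 2.14), without overlap. The change was 1.54 (SE 0.59, adjusted p = 0.0428), which is 2.92-fold, with 6 of 6 mice higher than all vehicle mice. It was 0.74, 2.44 and 1.45 on the 3 slides. The LWT call was lost with slide as a block (adjusted p = 0.0544), and also when any 1 of 9 LWT mice was left out (vehicle 2, 3, 4 or 5, or CL316243 1, 2, 3, 5 or 6), with values of 1.19 to 1.60 and adjusted p of 0.0551 to 0.119.

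LKO mice read -0.53 to 3.49 for Cish under vehicle (median 0.67) and 1.92 to 4.97 with CL316243 (median 2.65). The groups overlapped through 1 vehicle mouse, replicate 1. Cish rose by 2.04 (SE 0.59, adjusted p = 0.00838), with 6 of 6 mice above the vehicle mean. The slides gave 4.23, -0.22 and 2.11, and the slide with the negative value held that vehicle mouse. The interaction was 0.50 (95% interval -1.24 to 2.23, adjusted p = 0.822).

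Socs2 (A_51_P107362, chr10:94875066-94875125, minus strand) was not called in either genotype. It ran from -1.09 to 0.85 in LWT vehicle mice (median 0.44) and from -0.42 to 2.99 with CL316243 (median 0.25). In LKO it ran from -0.29 to 1.26 (median 0.44) and from -0.73 to 4.79 (median 1.1). The changes were 0.39 (95% interval -0.98 to 1.76, adjusted p = 0.689) and 0.94 (95% interval -0.43 to 2.31, adjusted p = 0.271). The highest value of each treated group came from the mouse numbered 3. Another probe of the same transcript, A_55_P1992838, changed by 0.23 in LWT and by 0.75 in LKO. Its change minus that of A_51_P107362 was -0.16 in LWT and -0.19 in LKO (exact permutation, adjusted p = 0.228 and 0.0433). A dimmer Socs2 probe, A_52_P84037, lies 24319 bases from A_51_P107362 and is annotated to a separate Ensembl transcript. This dimmer probe was well above background on 2 to 6 of 6 arrays per group. It rose by 1.1 in LKO (SE 0.36, adjusted p = 0.0187) and changed by 0.17 in LWT (adjusted p = 0.758).

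Cish was compared from mouse to mouse with 18 member probes. Of those with a positive r in 4 of 4 groups, Socs2 (A_51_P107362) and the Igf1 probe A_52_P306327 are described in full. The others gave lower minima: r was 0.20 to 0.90 for Igf1 A_51_P147942, 0.35 to 0.93 for Igf1 A_55_P2085979 and 0.69 to 0.98 for Socs2 A_55_P1992838. Within the 4 groups, Pearson's r between Cish and Socs2 was 0.74 to 0.99, and between Cish and A_52_P306327 it was 0.70 to 0.89, each positive in 4 of 4 groups of 6 mice. Of 72 such relations of Cish with 18 member probes, the lowest adjusted p was 0.10 (exact permutation of pairings, n = 6), so none passed the adjustment. In LKO CL316243 mice Cish and Socs2 had r = 0.99 (exact p = 0.00139) and Spearman's rho = 1 (exact p = 0.00278), and r = 0.99 without the 2 mice farthest from the median of Cish. In LWT CL316243 mice r was 0.89 (exact p = 0.0292, rho = 0.60 with exact p = 0.242) and -0.07 without those 2 mice, so the size of r there depended on them. The same removal gave -0.43 in LWT vehicle and 0.76 in LKO vehicle mice. For A_52_P306327 it left -0.37 and -0.11 in the LWT groups (vehicle, then CL316243) and 0.76 and 0.96 in the LKO groups. The removal leaves few mice and narrows the range of Cish. These values therefore cannot show whether either relation differs between the genotypes. The dim Socs2 probe A_52_P84037 had r of -0.58 with Cish in LWT vehicle mice and 0.49 to 0.95 in the other groups. Stat5b gave r of -0.67 to 0.03 with Cish.

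**Figure D4:**
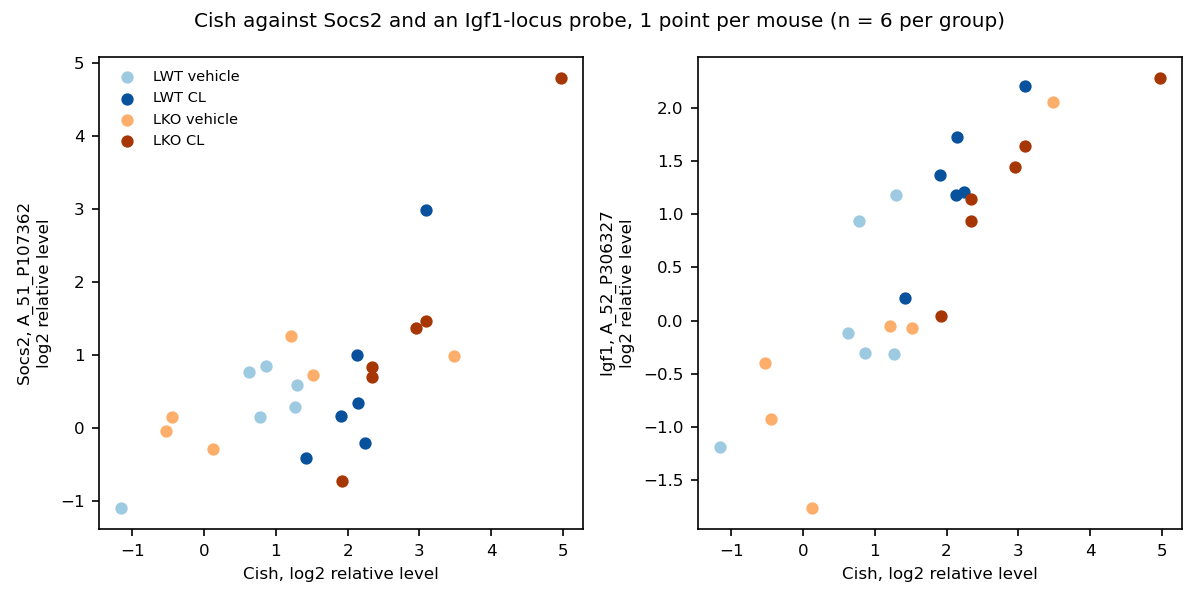
Level of Cish in each mouse against Socs2 (left, A_51_P107362) and against the Igf1 probe A_52_P306327 (right), both on the log2 relative scale, coloured by group with 6 mice each. The LKO CL316243 mouse at Cish 4.97 has the highest Socs2, 4.79, and the LKO vehicle mouse at 3.49 lies among the treated mice.

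Igfbp1, an IGF-binding protein whose liver RNA responds within hours to insulin and fasting, had the largest log2 change of the 10 representative probes. Its probe A_51_P447545 (chr11:7102442-7102501, plus strand) ran from 1.61 to 5.58 in LWT vehicle mice (median 4.05) and from 5.46 to 8.94 with CL316243 (median 7.19). The groups overlapped by 1 mouse on each side. Igfbp1 rose by 3.64 (SE 0.67, adjusted p = 0.000176), which is 12.4-fold, with slide values of 1.63, 5.0 and 4.28. LKO mice ran from 2.80 to 5.92 under vehicle (median 4.05) and from 7.47 to 9.71 with CL316243 (median 8.87), without overlap. Igfbp1 rose by 4.53 there (SE 0.67, adjusted p = 1.85e-05), which is 23.1-fold, with slide values of 5.91, 3.51 and 4.16. The interaction was 0.89 (95% interval -1.07 to 2.85, adjusted p = 0.691).

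Igfbp2, the other binding protein known to be high in fasted liver, did not pass the test for CL316243 in either genotype. The changes were 0.22 in LWT (95% interval -0.18 to 0.62, adjusted p = 0.410) and -0.19 in LKO (95% interval -0.59 to 0.21, adjusted p = 0.449). Its probe A_55_P2056729 (chr1:72898677-72898736, plus strand) differed between the genotypes instead. Under CL316243 it ran from 4.81 to 5.82 in LWT (median 5.26) and from 4.02 to 4.68 in LKO (median 4.28), without overlap. LKO mice were lower by 0.97 on the log2 scale (difference -0.97, SE 0.19, adjusted p = 0.00101), with slide values of -0.56, -1.05 and -1.30. Under vehicle it ran from 4.56 to 5.27 in LWT and from 3.91 to 4.88 in LKO, a difference of -0.56 (SE 0.19, unadjusted p = 0.00834, adjusted p = 0.274 by limma) and all 6 LKO mice were below the mean of LWT. The interaction was -0.41 (95% interval -0.98 to 0.16, adjusted p = 0.470).

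Igfbp3, the main carrier of circulating IGF1, is made in liver largely outside hepatocytes. Its probe A_55_P2803213 ran from 1.78 to 3.04 over all 24 mice, and the groups overlapped. The change was -0.26 in LWT (95% interval -0.55 to 0.03, adjusted p = 0.156) and -0.03 in LKO (95% interval -0.32 to 0.26, adjusted p = 0.894). The slides gave -0.80, -0.07 and 0.10 in LWT.

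Between genotypes, no member was called under vehicle, where limma called 1.18% of all genes; Igfals and Igfbp2 had an unadjusted p under 0.05. Under CL316243 the 2 members called were Stat5b and Igfbp2, against 15.9% of all genes. Both did not overlap between genotypes, against 6.57% of all genes. These comparisons use the same treated groups as the comparisons with vehicle.

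The 26 other genes listed for the pathway included 22 that were tested; Igf2, Pappa, Pappa2 and Stc2 did not pass the filter. With CL316243, 8 were higher and 2 lower in LWT, and 6 were higher and 3 lower in LKO, while 18.9% and 20.9% of all genes were called higher and 19.4% lower in each. Their median change was 0.24 in LWT and 0.09 in LKO. The STAT, SOCS and phosphatase list held most of the rises, with 6 of 9 higher and 0 lower in LWT, and 5 higher and 1 lower in LKO. Its median change was 0.84 and 0.82.

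Socs3, the feedback inhibitor induced by STAT3, rose by 2.99 in LWT (SE 0.66, adjusted p = 0.00107) and by 3.01 in LKO. Stat3 itself rose by 1.0 and 1.73. Ptpn1, a phosphatase that acts on JAK2 and the insulin receptor, rose by 1.53 and 1.29. Leprot, whose product lowers the growth hormone receptor at the cell surface, rose by 0.84 and 0.82, and Ptpn11, a phosphatase that binds cytokine receptors, by 0.27 and 0.37. Leprotl1, a relative of Leprot, rose by 0.48 in LWT, with a change of -0.08 in LKO (interaction -0.56, adjusted p = 0.0187). Ptpn6, a phosphatase abundant in blood cells, changed by 0.23 in LWT and fell by 0.37 in LKO (interaction -0.60, adjusted p = 0.0263).

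Of 9 receptors, kinases and adaptors, 2 were higher and 1 lower in LWT, and 1 was higher and 1 lower in LKO. Beside them, 18.9% of all genes were higher in LWT and 20.9% in LKO, and 19.4% were lower in each. Irs2, an adaptor of the insulin and IGF1 receptors, rose by 2.88 in LWT (SE 0.53, adjusted p = 0.000178) and by 1.89 in LKO (SE 0.53, adjusted p = 0.00655). Irs1, the other main adaptor, changed by -0.72 in LWT (adjusted p = 0.0695) and fell by 1.49 in LKO. Grb10, an inhibitor of these receptors, fell by 0.98 in LWT, with a change of -0.08 in LKO (interaction 0.91, adjusted p = 0.115). Insr, the insulin receptor, rose by 0.25 in LWT, with a change of 0.14 in LKO (adjusted p = 0.201). Of 4 tested binding proteins and ligands, Igfbp4 fell by 0.28 in LWT and Igfbp5 by 1.60 in LKO. None of these 4 was called for the interaction.

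**Figure D5:**
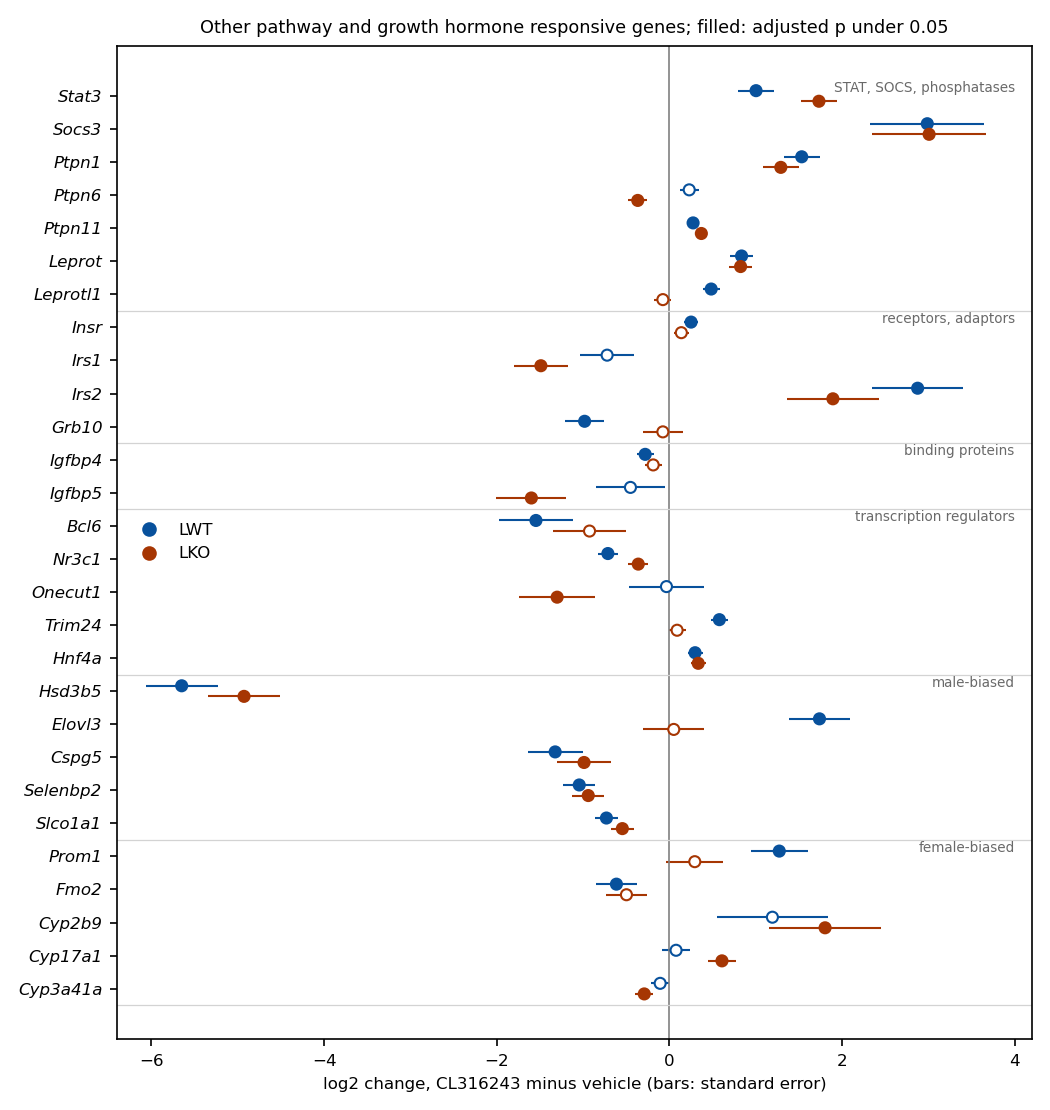
Log2 change with CL316243 in LWT (blue) and LKO (red), with standard errors from limma on 6 mice per group, for the named genes of the pathway lists and of the growth hormone responsive lists; filled points have an adjusted p under 0.05. Socs3 and Irs2 lie to the right in both genotypes, and Hsd3b5 lies at -5.65 and -4.93.

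Among 7 transcription regulators that act with or are controlled by STAT5 in liver, 2 were higher and 2 lower in LWT, and 1 was higher and 2 lower in LKO. The shares of all genes were 18.9% higher in LWT, 20.9% higher in LKO and 19.4% lower in each. Bcl6, a repressor that competes with STAT5 for sites, fell by 1.55 in LWT (SE 0.43, adjusted p = 0.00614) and changed by -0.93 in LKO (adjusted p = 0.0878). Nr3c1, the glucocorticoid receptor and a partner of STAT5, fell by 0.71 and 0.36. Hnf4a, a hepatocyte regulator, rose by 0.30 and 0.33. Onecut1 changed by -0.03 in LWT and fell by 1.30 in LKO (interaction -1.27, adjusted p = 0.281). Trim24, a co-regulator, rose by 0.58 in LWT, with a change of 0.09 in LKO (interaction -0.49, adjusted p = 0.0391).

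Growth hormone pulses also maintain male-biased liver genes, and all 11 listed ones were tested. With CL316243, 1 was higher and 4 lower in LWT, and 0 were higher and 4 lower in LKO, with median changes of -0.39 and -0.30. For these and the female-biased counts below, the shares of all genes were 18.9% higher in LWT, 20.9% higher in LKO and 19.4% lower in each. Hsd3b5, a steroid dehydrogenase, fell by 5.65 (SE 0.42, adjusted p = 1.08e-09) and 4.93. Cspg5 fell by 1.32 and 0.99, Selenbp2 by 1.04 and 0.94, and Slco1a1, an organic anion transporter, by 0.73 and 0.55. Elovl3, a fatty acid elongase, rose by 1.74 in LWT, with a change of 0.05 in LKO (interaction -1.69, adjusted p = 0.0513). Of 12 female-biased genes 7 were tested, with 1 higher and 1 lower in LWT, and 2 higher and 1 lower in LKO. Prom1 rose by 1.27 and Fmo2 fell by 0.61 in LWT. In LKO Cyp2b9 rose by 1.80, Cyp17a1 by 0.61, and Cyp3a41a fell by 0.29. No tested female-biased gene was called for the interaction, so a call in 1 genotype does not show a difference between the genotypes. Hsd3b5, Selenbp2, Cyp2b9 and Cyp3a41a have near-identical relatives, and a probe may read more than 1 of them.

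The genes with group means nearest to each called member, out of 15153 genes with a reference symbol, were found by the root mean square difference of their 4 centred group means. Nearest to Igfals were Lag3 (0.034), Abtb2 and Hdac11. For Cish they were Socs1 (0.073), another SOCS family brake, with Zdhhc25 and Sox9. Socs1 changed by 1.42 in LWT (SE 0.81, adjusted p = 0.177) and by 1.90 in LKO (adjusted p = 0.0641). Stat5b was nearest to Bhlhe40 (0.043), Gm30845 and Mrgpre, and Igfbp2 to Abcg2 (0.033), Smim4 and Mogat1. Igfbp1 had Col12a1 (0.091), Slc10a6 (0.30) and Hcar2 (0.32), and Ghr had Aamp (0.0043), Heatr5b and Dpcd. The measure rests on 4 means and so describes these groups only.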

How the data were processed

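Scanner tables of 24 arrays were used, with intensity per spot on a linear scale, which the authors had background-subtracted in Agilent Feature Extraction (10.10.1.1 in the headers). The deposited series table holds log2 values; they differed from the quantile-normalized log2 median signal by a median of 0.000254 over 31367 probes, and 99.26% lay within 0.01. It served as an alternative. Per the submitters' processing notes, limma was also used. Here, outlier spots and control spots were left out, log2 signals were centred on each array's 75th percentile (397.4 to 577.7 intensity units), and spots of 1 probe were averaged. Probes stayed in where 4 or more of the 6 arrays in some group were well above background and each group had 3 values or more, which left 32037. The brightest kept probe stood for its gene.

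Groups were taken from the genotype and treatment labels. Group means were modelled over all 24 arrays with limma 3.58.1 in R 4.3.3, with 5 comparisons and Benjamini-Hochberg adjustment over 21331 genes; probes were also fitted singly. The number of arrays limits the precision: the median SE was 0.13, and 0.19 for the interaction. In simulated data with independent normal noise of each gene's spread, 81% of 200 genes shifted by 1 in LWT were called. Beside them were 13 false calls, and 14 unshifted genes were called for the interaction. Only 200 of 21331 genes were shifted, whereas 38.3% were called in the real data, so the share recovered need not hold there. The 10 members and all lists were chosen with earlier results of these data known. Named beside the members were called genes of these lists, at most the 4 largest per list and treatment comparison, and those called for the interaction; the 3 genes nearest each called member; and Ppara. The markers Adrb3, Cela2a and Ctrb1 were named after their values were seen. Same-numbered mice had a mean correlation of 0.06, with 9 of 36 pairs over 0.1, and mice of other numbers -0.01, with 19 of 180. Whether these differ was not tested. The numbers were not taken as pairs in the main fit, and a replicate block served as an alternative. The 13 alternatives covered background correction, normalization, filters, the authors' table, probe choice, slide and row blocks, a replicate block, the groups fitted and the left-out mice numbered 3, and each of the 24 mice was left out in turn.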

Additional observations from a re-analysis of the deposited data

Results flagged for a closer look

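Of 76 sets of 6 mice (19 kept probes in 4 groups), 8 had 1 mouse set apart by a gap that, as a share of the range, exceeded Dixon's 95% critical value; chance gives about 1 in 20. LWT vehicle mouse 3 was lowest of its group for the Ghr probes A_51_P499854 (4.99, next 5.28) and A_52_P680941 (3.59, next 3.9) and for the Stat5a probe A_55_P1990495 (-0.21, next 0.35). LWT vehicle mouse 2 was lowest for Cish (-1.15, next 0.63) and for Socs2 A_51_P107362 (-1.09, next 0.15). LWT vehicle mouse 1 was lowest for Igfbp2 (4.56, next 5.10). LKO vehicle mouse 1 was highest for Igf1 A_55_P2085979 (2.55, next 1.39). LKO CL316243 mouse 3 was highest for the dim Socs2 probe A_52_P84037 (-2.50, next -3.77).

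The effect of CL316243 on Stat5b differed between LKO and LWT by the interaction test, by 1.02 for the representative probe. It was 1.15 for A_52_P663027, which is annotated to an unclassifiable cDNA clone.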

How the results depend on the processing

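Over 13 processing alternatives, Igfals, Stat5b and Igfbp1 kept their direction and calls for CL316243 in both genotypes, as did Ghr and Cish in LKO, the Stat5b interaction, and Stat5b and Igfbp2 between genotypes under CL316243. The fits of the compared groups alone have no interaction. In LWT, 4 members were called, but 7 with the mean of a gene's kept probes: Ghr (-0.67), Igf1 (0.71) and Stat5a (0.40) were added. That mean gave 7 in place of 5 in LKO, adding Igf1 (0.73) and Stat5a (0.55). The share of all genes called with that mean is not given here, so the counts of 7 cannot be set against the whole array. Normexp, quantile normalization and the authors' values each gave 5 in LWT, adding Ghr. The Cish call in LWT was lost without a filter (adjusted p = 0.0785), with slide (0.0544) or slide and row (0.0609) as blocks, and without both CL316243 mice numbered 3, an alternative chosen after seeing the data (1.36, 0.0607). Leaving out 1 mouse gave 3 to 5 calls in LWT, 5 in LKO, 2 or 3 between genotypes under CL316243, 0 under vehicle and 1 for the interaction. The third call was Igfals, higher in LKO without LWT CL316243 mouse 4 (0.51, adjusted p = 0.0173) or LKO CL316243 mouse 3 (0.47, adjusted p = 0.0387). With the mouse number as a replicate block, 4, 5, 1, 0 and 2 members were called (CL316243 in LWT and LKO, interaction, genotypes under vehicle and under CL316243), as without it.

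Signs turned only for values that were not called. By processing these were the Igfals interaction at -0.0037 (normexp), Stat5a between genotypes under CL316243 at 0.012 (quantile) and 0.079 (mean of probes), the Ghr interaction at 0.081 (mean of probes), and, without both mice numbered 3, Socs2 in LWT at -0.081 and the Stat5a interaction at -0.055. Leaving out 1 mouse moved the following across 0. Under vehicle, LKO minus LWT ran from -0.23 to 0.57 for Cish, -0.065 to 0.36 for Socs2, -0.11 to 0.016 for Stat5a and -0.21 to 0.00062 for Igfbp3. Under CL316243 it ran from -0.0046 to 0.080 for Ghr, -0.16 to 0.023 for Igf1 and -0.058 to 0.039 for Stat5a. The interaction ran from -0.038 to 0.17 for Igfals, -0.12 to 1.02 for Socs2 and -0.027 to 0.11 for Stat5a. The CL316243 effect ran from -0.064 to 0.011 for Igfbp3 in LKO and from -0.081 to 0.60 for Socs2 in LWT. The cause was not tested. Without a filter, the median change of all genes was 0.11 in LWT and 0.10 in LKO. Dim probes limit Socs2 and Igfbp3: A_55_P2072586 and A_55_P1992715 were not kept.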
